A study of Homo sapiens with 12 samples.

Results

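The 6 genes described here, IGFBP2 to IGFBP7, encode insulin-like growth factor binding proteins and were taken by symbol from the 40173 gene identifiers of the table. 624Mel is an established human melanoma cell line, and its RNA was sequenced in 4 conditions with 3 libraries each. Cells received either a control siRNA (siCTRL) or an siRNA against MITF (siMITF), MITF being the transcription factor that directs the melanocyte programme. From 24 hours after transfection, 1 arm of each was given 5 ng/mL of interferon gamma (IFNγ) for 24 hours (siCTRL + IFNγ and siMITF + IFNγ), and the other arm was not. The comparisons ask how loss of MITF, IFNγ and both together change these genes. All 12 libraries come from a single line, so the values describe 624Mel and not melanoma at large, and the labels give the libraries of a condition only a number. The study's methods describe its experiments in general as independent biological replicates without a statement on these libraries, so p-values measure the spread between them, which may in part be technical.

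IGF binding proteins are secreted and hold the ligands IGF1 and IGF2 outside the cell, so that less, or at times more, ligand reaches the receptor IGF1R. Proteases such as HTRA1 and PAPPA cut them and release the ligand, and IRS1, IRS2, PI3K and AKT carry the receptor's signal inside the cell. IGFBP2 and IGFBP5 can also bind the extracellular matrix and act on cells without an IGF, and IGFBP2 is often raised in melanoma.

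Only IGFBP2 and IGFBP5 were expressed at a level that could be tested. They reached 163.0 and 66.1 TPM (the deposited unit, a level per transcript length that is relative to all other RNA of the library) and supplied at least 98.1% of the summed TPM of the 6 genes in every library. Of the 6 genes, 2 passed the minimum of a mean of 2 TPM in at least 1 condition and 4 did not.

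MITF fell with its siRNA from between 186.9 and 229.1 TPM in siCTRL libraries to between 36.0 and 49.7 TPM in siMITF libraries, and from 158.0 to 246.4 TPM down to 37.5 to 55.1 TPM under IFNγ. IRF1, a transcription factor induced by IFNγ, went from at most 3.35 TPM without IFNγ to at least 76.8 TPM with it. The library of siCTRL + IFNγ replicate 1 stood apart in a trend of its deviations with transcript length (Spearman rho -0.28 across genes, against -0.14 to 0.14 in the other 11). The next lowest value was that of siMITF + IFNγ replicate 1 (-0.14), close to siCTRL replicate 1 (-0.12), and results are also given without both IFNγ-treated libraries numbered 1. The depth of the libraries is unknown, since TPM do not keep it.

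IGFBP2 (ENSG00000115457) lies on the plus strand of chromosome 2 at chr2:216632828-216664436 (GRCh38, GENCODE 44). IGFBP5 (ENSG00000115461) lies on the minus strand at chr2:216672105-216695549. The genes point at each other, 7668 bases apart and without overlap, so their starts are at opposite ends of the pair. The 250 bases before the start site of each reference transcript are shown because these are the starts of the 2 genes whose RNA changed, from RefSeq on GRCh38.p14, 5′ to 3′ on the strand of the gene, with matches to searched motifs in capitals. RefSeq has 3 windows for IGFBP2, and the one shown, at its reference transcript, lies inside the span given above, which begins at a transcript further upstream.
IGFBP2, chr2:216633170-216633419, plus strand: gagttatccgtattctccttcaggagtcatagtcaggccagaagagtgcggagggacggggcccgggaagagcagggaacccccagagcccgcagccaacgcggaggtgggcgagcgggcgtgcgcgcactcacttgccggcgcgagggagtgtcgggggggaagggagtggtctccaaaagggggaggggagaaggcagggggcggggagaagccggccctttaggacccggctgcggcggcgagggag
IGFBP5, chr2:216695550-216695799, minus strand: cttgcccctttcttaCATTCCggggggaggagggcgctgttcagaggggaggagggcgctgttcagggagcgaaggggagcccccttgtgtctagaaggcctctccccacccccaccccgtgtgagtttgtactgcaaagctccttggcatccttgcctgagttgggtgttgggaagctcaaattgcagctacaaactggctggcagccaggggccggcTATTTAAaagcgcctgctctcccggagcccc

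The stretches differ in base composition. That of IGFBP2 is 69.2% G and C with 22 CG pairs, and that of IGFBP5 is 61.2% with 8 CG pairs. Over the same 250 bases of 35116 RefSeq promoter windows the median is 58.0%. In the IGFBP5 stretch, the first capitals start 235 bases before the start site and read, on the other strand, as the core letters of TEAD sites (GGAATG). The second capitals, a TATA-like run chosen after the stretch was read (TATTTAA), start 31 bases before the start site. On either strand, the TEAD letters are held by 4928 of the 35116 windows of 250 bases before and 50 after a start, and the TATA-like run by 4.52%. None of the 3 windows of IGFBP2, nor that of IGFBP5, held CACGTG (an E-box bound by MITF, in 7.26% of windows), CATGTG (11.1%), the GAS letters TTCNNNGAA (7.66%), a pair of GAAA runs spaced by any 2 bases, as in interferon response elements (3.57%) or the AP-1 letters TGANTCA (7.71%). A match in letters is a description and not a site, and the search covers these windows only. Of the other members, IGFBP6 held the TEAD letters, while IGFBP3 and IGFBP4 held none of the letters and IGFBP7 was not searched.

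IGFBP2, which carries IGF1 and IGF2 and can bind integrins, was the most abundant IGFBP gene in every library. In siCTRL libraries 1, 2 and 3 its level was 75.8, 83.3 and 68.3 TPM. With IFNγ it was 141.5, 163.0 and 146.1 TPM in siCTRL cells. In siMITF libraries it was 101.4, 96.7 and 98.9 TPM, and in siMITF + IFNγ libraries 124.1, 126.7 and 128.5 TPM. No libraries of different conditions overlapped. The share of all tested genes that separate in this way was not taken, so overlap is given here and below only as a description. The order of the conditions from the highest was siCTRL + IFNγ (150.2 ± 11.3 TPM, mean ± SD, n = 3), siMITF + IFNγ (126.4 ± 2.23), siMITF (98.99 ± 2.38) and siCTRL (75.8 ± 7.51), and each of the 3 steps between neighbours passed the test. Both IFNγ-treated conditions thus stood above both untreated ones, and the siMITF levels lay between the siCTRL levels.

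IGFBP5, which binds IGFs and matrix proteins, followed another order. Its level in siCTRL libraries 1, 2 and 3 was 7.01, 7.89 and 7.91 TPM. In siCTRL + IFNγ libraries it was 1.91, 2.73 and 2.39 TPM. In siMITF libraries it was 58.2, 66.1 and 61.6 TPM, and in siMITF + IFNγ libraries 32.6, 38.3 and 44.9 TPM. Every siMITF library was above every siCTRL library whatever the IFNγ status, and within each siRNA every IFNγ-treated library was below every untreated one. From the highest, the order was siMITF (61.9 ± 3.97 TPM, mean ± SD, n = 3), siMITF + IFNγ (38.6 ± 6.15), siCTRL (7.605 ± 0.515) and siCTRL + IFNγ (2.34 ± 0.410), and again each of the 3 steps passed the test. The mean in siMITF cells was 26.5 times that in siCTRL + IFNγ cells, so IGFBP5 spanned a far wider range than IGFBP2.

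**Figure D1:**
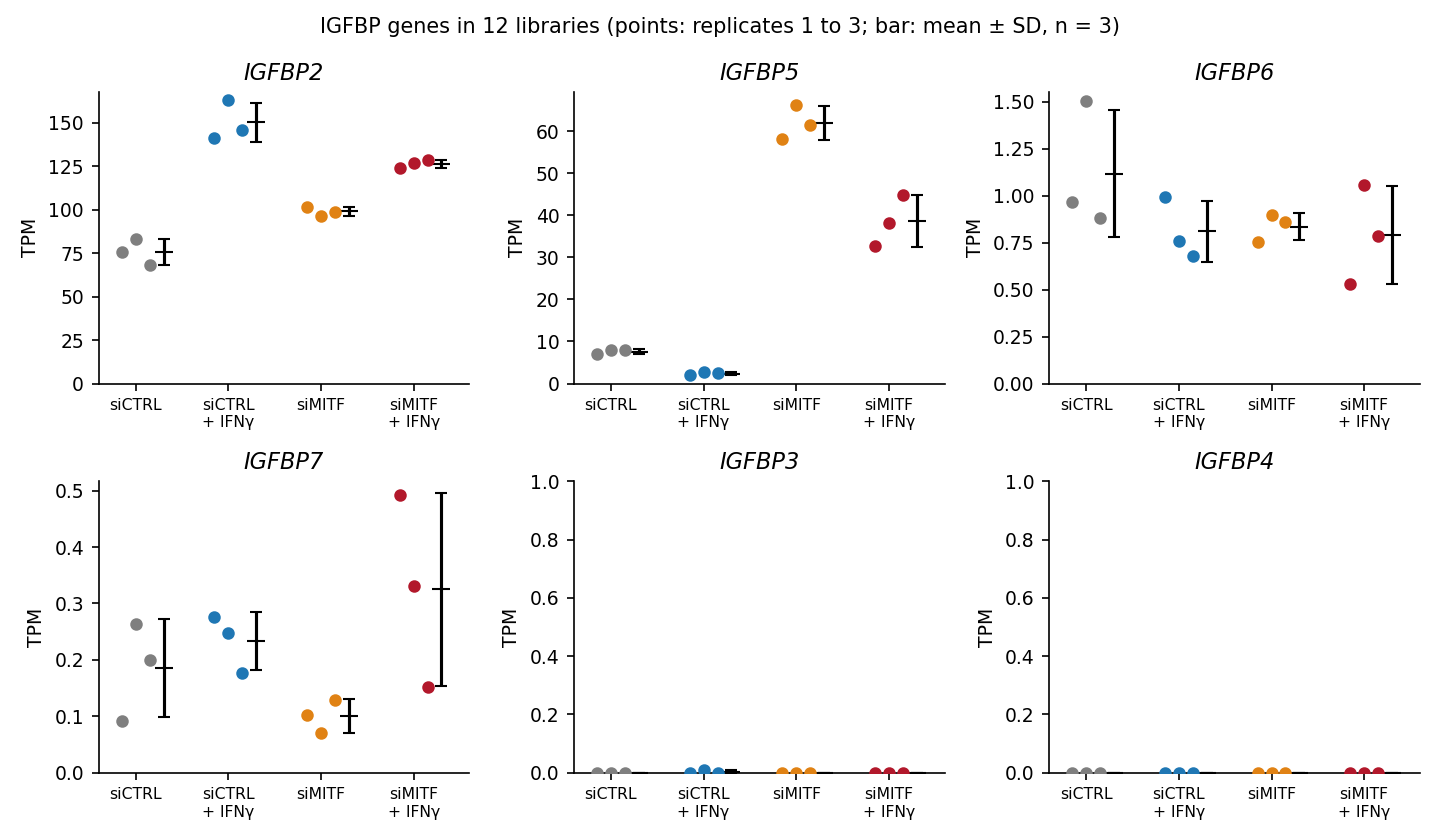
TPM (vertical axis, a separate linear scale per gene) of the 6 IGFBP genes in the 4 conditions, with 1 point per library and a bar for mean ± SD (n = 3). IGFBP2 runs from 68.3 to 163.0 TPM and IGFBP5 from 1.91 to 66.1 TPM with no overlap between conditions. IGFBP6 stays under 1.51 TPM with points that overlap between all conditions. IGFBP7 stays under 0.494 TPM with its single lowest point in siMITF, where the points overlap those of siCTRL. IGFBP3 and IGFBP4 lie at or near 0.

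Since the genes moved unlike each other, the balance of IGFBP2 to IGFBP5 was taken within each library, a quantity chosen after both genes' values had been seen. The ratio of IGFBP2 to IGFBP5 TPM was 10.8, 10.6 and 8.63 in siCTRL libraries and 74.0, 59.8 and 61.2 in siCTRL + IFNγ libraries. It was 1.74, 1.46 and 1.61 in siMITF libraries and 3.801, 3.31 and 2.86 in siMITF + IFNγ libraries. The conditions did not overlap, and the 4 mean ratios were 10.0 ± 1.19, 65.0 ± 7.86, 1.60 ± 0.140 and 3.33 ± 0.470 in that order (SD, n = 3). IGFBP5 was thus 9.17% ± 1.06 of the summed TPM of the pair in siCTRL cells, 1.53% ± 0.171 with IFNγ, 38.5% ± 2.08 with siMITF and 23.3% ± 2.54 with both.

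With IFNγ the log2 ratio was higher by a mean of 1.87 over the siRNAs, by 2.70 in siCTRL cells and 1.05 in siMITF cells. With siMITF the mean difference of the log2 ratio was -3.46 over both IFNγ states, -2.64 without and -4.29 with IFNγ. Without both IFNγ-treated libraries numbered 1, the means were 1.77 and -3.47. The reference transcript of IGFBP2 has 1414 bases and 67.4% G and C, that of IGFBP5 6239 bases and 51.9%. The ratio was not taken with length and GC trends removed, so their part in it was not tested. No test is given for the ratio, since it was chosen with the separation of both genes in view. The summed level of the pair was 83.4 ± 7.52 TPM in siCTRL cells, against 152.5 ± 11.7 TPM with IFNγ, 160.9 ± 1.63 TPM with siMITF and 165.0 ± 8.35 TPM with both. The 3 treated conditions thus held similar sums made up of unlike shares, though the sums were not tested against each other.

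In untreated cells, both tested members were higher with siMITF than with siCTRL. IGFBP5 rose from a mean of 7.605 to 61.9 TPM, 8.15 times the siCTRL mean, and by 2.87 on the log2(TPM + 1) scale (SE 0.12, limma adjusted p = 5.46e-09). It ranked 8 of 12773 tested genes from the highest difference, and within replicate numbers 1, 2 and 3 the differences were 2.89, 2.92 and 2.81. IGFBP2 rose far less, from 75.8 to 98.99 TPM and by 0.39 (SE 0.08, adjusted p = 0.00244), with 0.41, 0.21 and 0.53 within numbers. Of all tested genes 34.8% passed in this comparison, and 21.0% in the higher direction, so a call by itself sets neither gene apart. The IGFBP2 call was lost when trends with transcript length and GC content were removed from each library, which left 0.15 (adjusted p = 0.0876). The IGFBP5 value stayed between 2.79 and 3.01 over all alternatives.

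Under IFNγ, the siMITF difference of IGFBP2 had the other sign. IGFBP2 was at 126.4 TPM in siMITF + IFNγ against 150.2 TPM in siCTRL + IFNγ, a difference of -0.24 (SE 0.08, limma adjusted p = 0.0332) that was negative in 3 of 3 replicate numbers (-0.19, -0.36 and -0.18). IGFBP5 rose from 2.34 to 38.6 TPM, 16.5 times the siCTRL + IFNγ mean and 3.56 on the log2 scale (SE 0.12, adjusted p = 1.38e-09), rank 1 of 12773 for a rise, with 3.53, 3.40 and 3.76 within numbers. In this comparison 33.1% of tested genes were called. The IGFBP2 call rested on single libraries: its adjusted p was 0.107 and 0.0638 without siCTRL + IFNγ replicates 2 and 3, and 0.0655, 0.0746 and 0.0587 without siMITF + IFNγ replicates 1, 2 and 3 (differences from -0.26 to -0.18). With both IFNγ-treated libraries numbered 1 left out, IGFBP2 differed by -0.27 (adjusted p = 0.034) and IGFBP5 by 3.58 (adjusted p = 1.92e-09).

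IFNγ moved the genes in opposite directions in siCTRL cells. IGFBP2 rose 1.98 times in TPM and by 0.98 on the log2 scale (SE 0.08, limma adjusted p = 2e-06), with 0.89, 0.96 and 1.09 within numbers. IGFBP5 fell by 1.37 (SE 0.12, adjusted p = 5.67e-06), the third lowest difference of all tested genes, with -1.46, -1.25 and -1.40 within numbers. On the TPM scale its siCTRL mean was 3.25 times its siCTRL + IFNγ mean. Of all tested genes 12.9% were called, 6.8% as higher and 6.14% as lower.

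In siMITF cells IFNγ moved the genes in the same directions as in siCTRL cells. IGFBP2 rose from 98.99 to 126.4 TPM, by 0.35 on the log2 scale (SE 0.08, limma adjusted p = 0.00834), with 0.29, 0.39 and 0.37 within numbers. IGFBP5 fell by 0.68 (SE 0.12, adjusted p = 0.00205), with -0.81, -0.77 and -0.45 within numbers. Here 20.2% of all tested genes were called, 7.99% as higher and 12.2% as lower. The mitochondrial share of TPM was higher in the IFNγ-treated library of 6 of 6 same-numbered pairs. It was 14.2%, 7.42% and 14.8% in siCTRL against 16.9%, 8.45% and 15.7% in siCTRL + IFNγ, and 12.8%, 10.1% and 14.02% in siMITF against 16.9%, 12.7% and 16.1% in siMITF + IFNγ, and its part in the IFNγ differences was not tested. Without both IFNγ-treated libraries numbered 1, the IFNγ differences of IGFBP2 were 1.02 in siCTRL and 0.36 in siMITF cells, those of IGFBP5 were -1.27 and -0.57, and each passed.

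Set against untreated siCTRL, both treatments together left both genes higher. The combination gave IGFBP2 a difference of 0.74 (SE 0.08, limma adjusted p = 1.06e-05) and IGFBP5 one of 2.19 (SE 0.12, adjusted p = 2.12e-08), in a comparison that called 44.5% of tested genes, 21.1% as higher and 23.4% as lower. The combination shares its siCTRL libraries with the single treatments, so these values are not independent of those above.

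**Figure D2:**
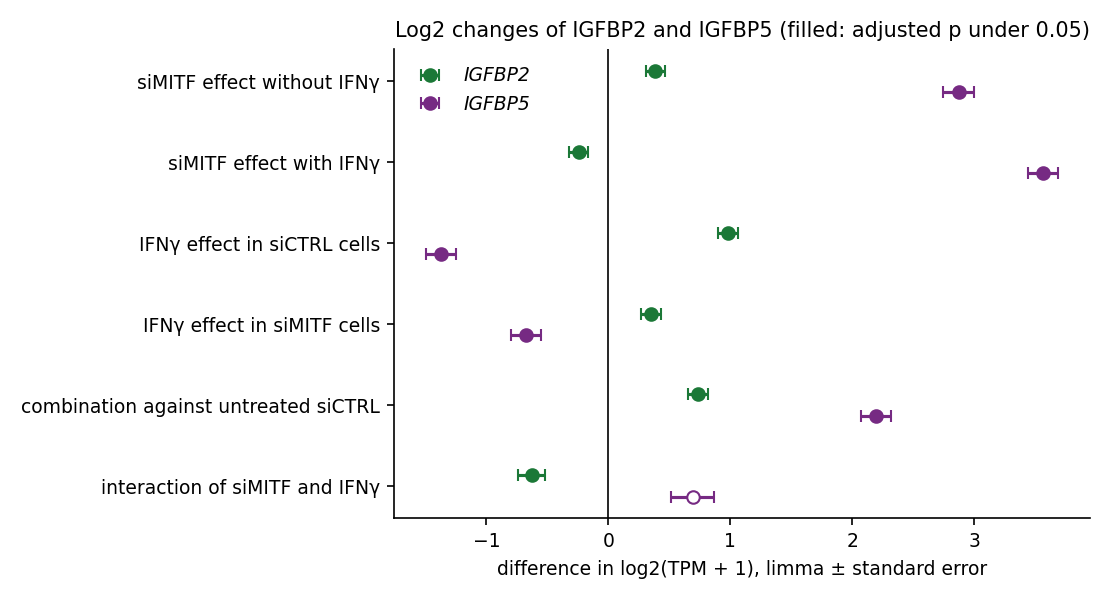
Differences of IGFBP2 and IGFBP5 in log2(TPM + 1) from limma (horizontal axis), with bars for the standard error, in the 5 comparisons and the interaction. Filled points passed an adjusted p of 0.05. IGFBP5 reaches 3.56 for siMITF with IFNγ, and the open point is its interaction of 0.69.

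The IGFBP2 response to IFNγ differed between the siRNAs by the test of the interaction (the IFNγ difference after siMITF, less the one after siCTRL). It was -0.63 for IGFBP2 (SE 0.11, limma adjusted p = 0.0188), with -0.60, -0.57 and -0.71 within replicate numbers, so the IFNγ rise was smaller after MITF knockdown in 3 of 3. Of all tested genes only 0.947% passed this test, 0.243% in the lower direction. The direction was the same with each library left out, but the call was lost in 7 of these 12 refits: adjusted p was 0.0589 and 0.0518 without siCTRL replicates 1 and 3, 0.0515 without siCTRL + IFNγ replicate 3, 0.0752, 0.0529 and 0.0667 without siMITF replicates 1, 2 and 3, and 0.0513 without siMITF + IFNγ replicate 2.

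For IGFBP5 the interaction was 0.69 (SE 0.18) and did not pass (limma adjusted p = 0.123), although it was positive within each number (0.65, 0.48 and 0.95). In a fit that blocked on the replicate number, so that same-numbered libraries were set against each other, it passed at the same size (adjusted p = 0.0112). It also passed without siMITF + IFNγ replicate 1 (0.80, adjusted p = 0.0426) and without both IFNγ-treated libraries numbered 1 (0.71, adjusted p = 0.0331). The 2 interactions thus had opposite signs, as the responses to IFNγ did, and for both genes the estimated IFNγ difference was nearer to 0 in siMITF cells.

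On the linear TPM scale the departure from adding up was downward for both genes. For IGFBP2, siCTRL plus the single differences (74.4 TPM for IFNγ and 23.2 TPM for siMITF) comes to 173.4 TPM, and the combination was at 126.4 TPM, which is lower than IFNγ alone. The corresponding sum for IGFBP5 is 56.7 TPM, against 38.6 TPM measured. So for IGFBP5 the sign depends on the scale, being positive on the log2 scale and negative in TPM, while for IGFBP2 it is negative on both.

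The other protein-coding genes within 500 kb of the pair, were picked after values were seen. XRCC5 (DNA end joining), SMARCAL1 (replication fork repair) and RPL37A (a ribosomal protein) were tested, and none of them passed in the 4 single-treatment comparisons or the interaction. Their differences there lay between -0.27 and 0.05. In the combination XRCC5 was at -0.29 (limma adjusted p = 0.0117) and SMARCAL1 at -0.32 (adjusted p = 0.0228). MARCHF4 and TNP1 were below the minimum. Of the 5 tested genes of the locus, only the members themselves, IGFBP2 and IGFBP5, passed in a single-treatment comparison. Over all tested genes, 34.8% and 33.1% were called for siMITF without and with IFNγ. For IFNγ, 12.9% were called in siCTRL and 20.2% in siMITF cells. Missing calls of so few neighbours therefore do not set the pair apart within its locus.

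The 4 remaining members were at or near the bottom of the table. IGFBP6, which prefers IGF2 as ligand (chr12:53097436-53102345, plus strand, ENSG00000167779), was at 0.967, 1.503 and 0.879 TPM in siCTRL libraries, 0.993, 0.757 and 0.680 TPM in siCTRL + IFNγ, 0.754, 0.896 and 0.857 TPM in siMITF and 0.530, 1.06 and 0.786 TPM in siMITF + IFNγ. All 4 conditions overlapped. IGFBP7, a secreted protein with low affinity for IGFs (chr4:57030773-57110385, minus strand, ENSG00000163453), was at 0.0921, 0.264 and 0.200 TPM in siCTRL, 0.276, 0.248 and 0.177 TPM in siCTRL + IFNγ, 0.102, 0.0706 and 0.129 TPM in siMITF and 0.493, 0.330 and 0.152 TPM in siMITF + IFNγ. Each siMITF + IFNγ library was above each siMITF library, but in a fit without the minimum the difference of 0.26 did not pass (limma adjusted p = 0.112).

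IGFBP3, the main carrier of IGFs in blood (chr7:45912245-45921874, minus strand, ENSG00000146674), was listed at 0 in 11 of the 12 libraries and at 0.0112 TPM in siCTRL + IFNγ replicate 2. IGFBP4, the main substrate of the protease PAPPA (chr17:40443450-40457725, plus strand, ENSG00000141753), was listed at 0 in all 12. When the minimum was dropped, IGFBP4 was still not tested, as it had no value above 0. IGFBP3, IGFBP6 and IGFBP7 were then not called by limma in any of the 5 comparisons or the interaction. Among them, only the IGFBP7 value above had an unadjusted p under 0.05. IGFBP3 was at 0 in 11 of the 12 libraries, so its missing call is not informative. IGFBP1, which neighbours IGFBP3 on chromosome 7, did not exceed 0.129 TPM.

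Genes with a pattern like that of each tested member were named by Pearson correlation of log2(TPM + 1) over the 12 libraries, as a description in which the points share 4 conditions. For IGFBP2 they were TMEM234 (r = 0.98), PROCR (the endothelial protein C receptor, r = 0.96) and VPS16 (endosome to lysosome transport, r = 0.96). Those nearest to IGFBP5 were MEGF9, PDZRN3 and FAM107B (r = 0.99 each). By Spearman's rho these 6 values ran from 0.895 to 0.993, but none of the 6 stayed among the first 3 for its member. The mean of TMEM234, the nearest to IGFBP2, was 17.3 TPM in siCTRL, 23.7 TPM in siCTRL + IFNγ, 19.6 TPM in siMITF and 22.6 TPM in siMITF + IFNγ, a narrower range than that of IGFBP2. Between themselves IGFBP2 and IGFBP5 had r = -0.21 (rho = -0.37, n = 12 libraries).

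Among the other genes listed for the IGF pathway, 34 of 56 were tested. They include PDK1 (pyruvate dehydrogenase kinase 1), which is not a gene of the PI3K and AKT arm. It is the 1 lower call for siMITF in untreated cells below, and is among the lower calls of the combination. With siMITF in untreated cells 13 were called higher and 1 lower, and under IFNγ 14 higher and 1 lower, where 21.0% and 18.4% of all tested genes were called higher and 13.8% and 14.7% lower. For IFNγ, 2 were called higher and 3 lower in siCTRL cells, where the shares over all tested genes were 6.8% and 6.14%. In siMITF cells 2 were called higher and 4 lower, beside 7.99% and 12.2% over all, so the IFNγ counts are near the background. The combination called 12 higher and 6 lower, beside 21.1% and 23.4%. None had an interaction (limma, with 1 of 34, PIK3R2, at an unadjusted p under 0.05). The counts moved with the setting. With the replicate block they became 18 higher and 1 lower for siMITF without IFNγ, 17 and 5 for siMITF with it, 3 and 6 for IFNγ in siCTRL cells, 4 and 8 for IFNγ in siMITF cells and 15 and 7 for the combination. Without both IFNγ-treated libraries numbered 1 they were, in the same order, 18 and 2, 14 and 3, 5 and 3, 4 and 4, and 17 and 4. With length and GC trends removed they were 16 and 4, 15 and 5, 4 and 7, 4 and 9, and 14 and 7.

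The ligands were scarce in these cells. IGF1 was at 1.16, 0.785 and 0.895 TPM in siCTRL and 1.04, 0.774 and 1.497 TPM in siCTRL + IFNγ, against 0.194, 0.179 and 0.0376 TPM in siMITF and 0.0377, 0.0482 and 0.167 TPM in siMITF + IFNγ. Every siMITF library was below every siCTRL library. IGF1 missed the minimum, and in the fit without it the siMITF difference was -0.77 without and -0.94 with IFNγ (limma adjusted p = 0.00189 and 0.000584). IGF2 did not exceed 0.0291 TPM and INS, which encodes insulin, was listed at 0 in all 12 libraries. In untreated cells, IGF1 was thus lower with siMITF while IGFBP2 and IGFBP5 were higher.

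Neither tested receptor, IGF1R and IGF2R, was called in any comparison. IGF1R, the signalling receptor, was at 11.1, 18.2 and 15.6 TPM in siCTRL, 5.11, 24.3 and 19.6 TPM in siCTRL + IFNγ, 10.6, 19.7 and 14.7 TPM in siMITF and 2.63, 14.3 and 15.7 TPM in siMITF + IFNγ. IGF2R, which clears IGF2, was at 44.98 and 54.9 TPM in the IFNγ-treated libraries numbered 1 and between 17.1 and 27.4 TPM in the other 10. The lowest IGF1R values and the highest IGF2R values were thus in the same pair of libraries, both numbered 1 and IFNγ-treated, and their part in the missing calls was not tested. With the replicate block IGF2R passed in the combination (adjusted p = 0.0175, against 0.128 without it). INSR, the insulin receptor, stayed under 2.07 TPM and missed the minimum.

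Of the 5 tested adaptors, which link the receptors to signalling inside the cell, IRS1 and IRS2 rose with siMITF and the other 3 were not called for it. IRS1 was at 7.30, 8.10 and 6.90 TPM in siCTRL libraries and 20.1, 24.1 and 23.0 TPM in siMITF libraries, a difference of 1.47 (SE 0.14, limma adjusted p = 5.91e-06), and of 1.26 under IFNγ (adjusted p = 2.49e-05). IRS2 rose by 1.03 and 0.95 (adjusted p = 9.3e-05 and 0.000204). Neither passed for IFNγ, except IRS2 in siMITF cells with the replicate block (-0.28, adjusted p = 0.0126). GRB10, an adaptor that dampens receptor signalling, fell by 0.48 with IFNγ in siMITF cells (limma adjusted p = 0.016), a call lost without siMITF replicate 2 (adjusted p = 0.0726) and without siMITF + IFNγ replicate 1 (adjusted p = 0.056). With the replicate block it also passed for IFNγ in siCTRL cells (-0.38, adjusted p = 0.00461) and for siMITF with IFNγ (-0.23, adjusted p = 0.0348).

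Of the 13 genes listed as other proteins with an IGFBP domain, 5 were tested, and all 5 rose with siMITF in both IFNγ states. Over all tested genes, 21.0% without and 18.4% with IFNγ were called higher. The rest of the list was below the minimum. CCN1, a matrix-associated signalling protein, rose from a mean of 14.1 to 76.2 TPM (2.35, limma adjusted p = 1.61e-07) and from 19.3 to 95.8 TPM under IFNγ (2.25, adjusted p = 2.59e-07). The differences without and with IFNγ were 1.54 and 1.68 for CCN3, 1.13 and 0.94 for CCN2, 1.28 and 1.00 for KAZALD1 and 1.24 and 1.22 for CRIM1, each past the threshold under every alternative. No gene of the list was called for IFNγ, though CCN1 passed with the replicate block, at 0.42 in siCTRL cells and 0.32 in siMITF cells (adjusted p = 0.00107 and 0.00449). These differences of CCN1 were positive and those of IGFBP5 negative.

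HTRA1 had differences of the same signs as IGFBP5. This secreted serine protease, which can cut IGFBP5, was at 37.5, 42.1 and 38.7 TPM in siCTRL, 27.4, 29.3 and 27.5 TPM in siCTRL + IFNγ, 80.6, 77.1 and 81.3 TPM in siMITF and 58.0, 55.7 and 58.1 TPM in siMITF + IFNγ. The conditions did not overlap and stood in the order of IGFBP5. HTRA1 rose by 1.00 with siMITF in both IFNγ states (limma adjusted p = 2.83e-07 and 3.11e-07, without and with IFNγ) and fell by 0.47 with IFNγ in both siCTRL and siMITF cells (adjusted p = 0.000476 and 0.000378). Its interaction was 0.00 (SE 0.10).

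Within the PI3K and AKT arm, PIK3R2, a regulatory subunit of PI3K, rose from 29.7 to 45.5 TPM with siMITF in untreated cells, by 0.60 (limma adjusted p = 0.000184) and fell by 0.48 with IFNγ in siMITF cells (adjusted p = 0.00203). Both calls stood under every alternative. For siMITF under IFNγ the PIK3R2 difference was also called, but it ran from 0.19 to 0.34 and lost the call in 6 of 25 alternatives. Of the 16 genes listed for the arm, all tested, siMITF called 5 higher, PIK3R2 among them, and 1 lower in each IFNγ state. The list includes PDK1, which encodes pyruvate dehydrogenase kinase 1 and not the PI3K-dependent kinase, whose gene is PDPK1. PDK1 was the 1 called lower without IFNγ, so that call is not one of the arm. Over all tested genes, 21.0% and 18.4% were called higher and 13.8% and 14.7% lower, without and with IFNγ.

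Markers of the labelled and of other cell types were summed beside these results. The 7 melanocytic markers summed to between 7247 and 9718 TPM in siCTRL libraries of either IFNγ state and to between 2134 and 2656 TPM in siMITF libraries, and MITF itself is one of them. The 6 fibroblast markers, of interest because fibroblasts express IGFBP5, summed to 5.34 to 6.74 TPM in siCTRL, 2.70 to 3.90 TPM in siCTRL + IFNγ, 7.52 to 8.77 TPM in siMITF and 5.01 to 5.95 TPM in siMITF + IFNγ. This sum moved in the directions of IGFBP5, and most of it was LUM, which differed by 0.46 and 0.51 for siMITF and by -0.70 and -0.65 for IFNγ (limma adjusted p from 0.00585 to 0.0254). Of the defining fibroblast markers, 4 of 6 were under 1 TPM in every library, COL3A1 at or under 0.0412 TPM and PDGFRB at or under 0.262 TPM. COL1A1 lay between 0.233 and 1.235 TPM and was not called, and COL1A2 lay between 0.0163 and 0.474 TPM and was higher with siMITF under IFNγ in the fit without a minimum (0.30, limma adjusted p = 0.0278). IGFBP5 reached 66.1 TPM, and the part of these markers in its differences was not tested. The 4 endothelial markers together did not exceed 0.808 TPM and the 4 leukocyte markers 0.950 TPM. Of the keratinocyte markers 3 of 4 were under 1 TPM in every library, the remaining one being KRT10 at 38.9 to 60.8 TPM. The paper describes its molecular results as coming from monocultures of melanoma cell lines, so no other cell type was part of the design. The sums are therefore RNA levels of marker genes and not shares of cell types. Bulk RNA does not show whether a level changed in all cells of the line or in some of them.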

How the data were processed

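Each library was deposited as TPM for every gene. Per the labels and the study's methods, the authors trimmed reads with Trimmomatic 0.39 and quantified them with kallisto on the Ensembl GRCh38 transcriptome. The Ensembl release and the tool that summed transcripts to genes are not given in the sources used here. The authors tested counts with DESeq2, and since TPM are not counts, limma was used here instead.

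Differences were tested with limma 3.58.1 (R 4.3.3) on log2(TPM + 1) for the 12773 gene identifiers whose mean reached 2 TPM in any condition. The model had 1 term for each condition over all 12 libraries, empirical Bayes moderation with a trend, and Benjamini-Hochberg adjustment over all tested genes. All p-values are two-sided, a gene was called at an adjusted p under 0.05, and fold changes on this scale understate those of low genes. The fit was tested on simulated data.

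Once each condition's mean was removed, the 18 same-numbered library pairs correlated across genes at 0.102 to 0.626 (median 0.279), against a median of -0.196 for different numbers. The numbers were therefore taken to pair the libraries, and the replicate block was an alternative, beside other pseudocounts (0.1 and 0.5), minimums, scalings and each library left out.

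Named genes were the 6 members, the 3 tested genes nearest to each tested member, MITF, IRF1, and ligands, receptors and called genes of the pathway lists. A gene of the PI3K and AKT list is counted but not reported here. Members and lists were chosen with earlier results of these data known. Gene positions are from GENCODE 44. Of the tested genes, 93.6% had a transcript length and GC content. Tables and figures used Python 3.11.15, pandas 2.3.3, numpy 2.4.6 and matplotlib 3.10.9.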

Additional observations from a re-analysis of the deposited data

Results flagged for a closer look

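The IFNγ difference of IGFBP2 differed between siCTRL and siMITF cells by the test of the interaction, -0.63 on the log2 scale (SE 0.11, limma adjusted p = 0.0188): IGFBP2 rose with IFNγ by 0.98 in siCTRL cells and by 0.35 in siMITF cells. Seen the other way, siMITF went with a higher level in untreated cells (0.39) and a lower one under IFNγ (-0.24). With each of the 12 libraries left out in turn, the interaction call was lost in 7 refits and the -0.24 call in 5. Without length and GC trends the 0.39 became 0.15 (limma adjusted p = 0.0876). The calls behind the change of sign were thus not stable. Conditions of 3 libraries are too small for the search for outlying samples, which was not made.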

How the results depend on the processing

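Over the 12 results on IGFBP2 and IGFBP5 (5 comparisons and the interaction for each), 298 alternative values were computed. Of these, 276 kept direction and call, 15 lost the call, 7 gained it and 0 changed direction. The lost calls are all of IGFBP2 and the gained ones all of the IGFBP5 interaction. The IFNγ differences of both genes, the siMITF differences of IGFBP5 and both combination differences kept their calls under every alternative. The IGFBP2 difference for siMITF without IFNγ was 0.15 (limma adjusted p = 0.0876, and 0.0607 with the replicate block) without length and GC trends, settings added after seeing the data. For siMITF with IFNγ it was lost in a fit of only the conditions compared (adjusted p = 0.0988). Its interaction ran from -0.70 to -0.46, that of IGFBP5 from 0.58 to 0.98, the latter passing under the replicate block (adjusted p = 0.0112), quantile normalization (0.00573), median centring (0.00509) and without length and GC trends (0.000524). The block changed no other call of a member.

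The number of called IGFBP genes was 1 for siMITF without IFNγ when length and GC trends were removed, with or without the block, and 1 for siMITF with IFNγ in a fit of only the conditions compared (1 to 2 with each library left out). For the interaction it was 2 with length and GC trends removed, with both this and the block, with the block, median centring, quantile normalization, and without both IFNγ-treated libraries numbered 1 (0 to 2 with each library left out).

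Counts over all tested genes moved more. With length and GC trends removed and with this plus the block, IFNγ in siCTRL cells called 3909 and 4984 genes in place of 1652, IFNγ in siMITF cells 4791 and 5826 in place of 2574, and the interaction 374 and 758 in place of 121. Removal of the trends with the block also gave 7006 in place of 4448 for siMITF without IFNγ and 7105 in place of 4229 with it. The block alone gave 3281, 4556 and 276 for the same IFNγ effects and the interaction. Quantile normalization gave 2825, 3996 and 294, and median centring 2814 for IFNγ in siCTRL cells and 263 for the interaction. In fits of only the conditions compared, siMITF with IFNγ called 2691 and IFNγ in siCTRL cells 1029. The interaction called 65 with a minimum of 5 TPM and 68 with a pseudocount of 0.1. With each library left out, counts were 1054 to 2049 for IFNγ in siCTRL cells, 1647 to 3133 for IFNγ in siMITF cells and 70 to 125 for the interaction. The cause of these moves was not tested.

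Depth is unknown, so no counting error or detection limit can be given, and the 4 low members are described by their listed values. The TPM do not separate the isoforms of a gene.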
